A study of Homo sapiens with 9 samples.

Results

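Metallothioneins are small cysteine-rich proteins that bind zinc and copper, and they bind cadmium when cells meet it. The genes described here were 6 metallothionein genes (MT1E, MT1F, MT1G, MT1M, MT1X and MT2A), the gene of the metal-sensing transcription factor MTF1, and the genes of a zinc exporter, SLC30A1, and a zinc importer, SLC39A10. They were chosen by name and were found as 9 of the 63187 genes in the count table. MTF1 protein binds short DNA elements called metal response elements (MREs) when cellular zinc rises, and the genes it switches on include metallothioneins and SLC30A1. SLC30A1 (ZnT1) moves zinc out through the plasma membrane, whereas SLC39A10 (ZIP10) brings zinc into the cytosol. Metallothionein genes are known to respond to metals, oxidants and glucocorticoids in airway and other epithelia.

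RNA-seq was done on BEAS-2B, an immortalised line of human bronchial epithelial cells grown with serum, in 3 groups of 3 libraries. Control cells were untreated. PG/VG cells received, for 24 h at 2%, an aerosol condensate of the carrier liquid, which is propylene glycol with vegetable glycerine. EC cells received, at the same time and percentage, a condensate of an e-cigarette liquid with nicotine (18 mg/mL in the liquid) and Virginia tobacco flavor. Each group had a library in each of batches 2, 3 and 4, the replicate number being the batch given in the labels. EC against PG/VG compares nicotine and flavor together. The study does not give the proportions of propylene glycol and glycerol in the EC liquid, so the carriers may differ too. All 9 libraries come from a single cell line. The study gives the replicates as biological, and the values therefore describe the spread between cultures of this line only.

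Libraries held between 16168260 and 24917838 counts, and the control libraries (16168260 to 17882770) were all shallower than the treated ones (18427225 to 24917838). Levels are given as CPM, the count of a gene divided by the total of its library and multiplied by the same constant in all libraries, after scaling by the trimmed mean of M-values (TMM). KRT7, KRT8 and KRT18, keratins of simple epithelium, were abundant, with at least 6075 counts in every library, and the basal-cell markers KRT5 and TP63 were near 0, with 3 and 18 counts over all 9 libraries. EPCAM and CDH1 were low, at 11 to 47 and 3 to 31 counts per library. The 8 epithelial markers summed to 1776 to 2844 CPM in control, 1721 to 2737 CPM in PG/VG and 1460 to 2287 CPM in EC. The 5 mesenchymal markers, with VIM and FN1 among them, summed to 5776 to 7731 CPM in control, 5442 to 7578 CPM in PG/VG and 4349 to 6251 CPM in EC. Markers of secretory or ciliated airway cells summed to at most 1.04 CPM, leukocyte markers to at most 0.386 CPM with CD3E at 0, and endothelial markers to at most 7.77 CPM in any library. The share of counts from mitochondrial genes ran from 1.32% to 1.92%. Batch 4 stood apart for several of the genes described here, and many of the results are therefore also given by batch.

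The 6 metallothionein genes lie in 75.6 kb of chromosome 16 (GRCh38, 56608584 to 56684196). MT2A (ENSG00000125148, 56608584 to 56609497), MT1E (ENSG00000169715, 56625475 to 56627112), MT1M (ENSG00000205364, 56632659 to 56633981), MT1F (ENSG00000198417, 56657731 to 56660698) and MT1X (ENSG00000187193, 56682470 to 56684196) are on the plus strand. MT1G (ENSG00000125144, 56666730 to 56668065) is on the minus strand. MTF1 (ENSG00000188786, 37809574 to 37859592) and SLC30A1 (ENSG00000170385, 211571568 to 211579161) are on the minus strand of chromosome 1, and SLC39A10 (ENSG00000196950, 195575977 to 195737702) is on the plus strand of chromosome 2. Metallothionein genes are close copies of each other, so the share of each main transcript whose 75-base windows also occur exactly in another gene was counted. It was 36.1% for MT1X, 6.55% for MT1G, 1.64% for MT1E, 0.420% for MTF1 and 0 for the other 5 genes. With windows of 150 bases, the read length given by the study, it was 6.67% for MT1X and 0 for all the others. Reads that matched several places were not counted, and 18.6% of the exon length of MT1X overlaps another gene, so the MT1X counts are uncertain.

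The bases just before the start of MT2A, MT1X and SLC30A1 are shown because they hold the letters to which MTF1 is known to bind. RefSeq promoters (GRCh38.p14) were matched for 5 of the 9 genes (MT2A, MT1X, SLC30A1, MTF1 and SLC39A10, the last with 2 starts), and MT1E, MT1F, MT1G and MT1M were not matched. The 250 bases before each start are printed 5′ to 3′ on the strand of the gene, and capitals mark each match to the MRE core, searched as TGCACNC and TGCGCNC on both strands. They are chr16:56608334-56608583 (plus) for MT2A, chr16:56682220-56682469 (plus) for MT1X and chr1:211579162-211579411 (minus) for SLC30A1.
MT2A: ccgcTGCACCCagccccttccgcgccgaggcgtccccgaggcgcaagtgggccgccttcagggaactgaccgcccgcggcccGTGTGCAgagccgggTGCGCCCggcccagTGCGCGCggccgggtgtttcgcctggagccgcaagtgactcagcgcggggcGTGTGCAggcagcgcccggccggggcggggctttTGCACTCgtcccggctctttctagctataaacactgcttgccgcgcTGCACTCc
MT1X: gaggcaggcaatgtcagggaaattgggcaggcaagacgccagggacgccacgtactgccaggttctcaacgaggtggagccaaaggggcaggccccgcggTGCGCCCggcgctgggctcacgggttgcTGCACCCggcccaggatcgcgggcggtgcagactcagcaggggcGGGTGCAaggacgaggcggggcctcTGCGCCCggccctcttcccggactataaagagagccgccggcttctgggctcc
SLC30A1: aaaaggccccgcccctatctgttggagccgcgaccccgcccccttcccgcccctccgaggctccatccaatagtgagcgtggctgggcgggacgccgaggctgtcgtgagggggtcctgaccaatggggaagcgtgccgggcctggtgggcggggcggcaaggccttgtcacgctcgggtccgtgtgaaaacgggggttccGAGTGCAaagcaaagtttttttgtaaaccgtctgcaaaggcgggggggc

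MT2A held 7 MRE cores in these 250 bases, and none of them overlapped another. At least 7 such cores were found in 11 of 35116 RefSeq promoters of the same length (0.0313%). MT1X held 4, a number reached by 0.37% of promoters. SLC30A1 held 1, and 24.8% of promoters held at least 1. No match was found before MTF1 or either SLC39A10 start. The core of the antioxidant response element, which NRF2 binds, was searched as TGACNNNGC on both strands. It occurred 1 time each before MT2A, MT1X and SLC30A1, and 10.9% of promoters held at least 1. A match is a run of letters and was not measured as a bound site.

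**Figure D1:**
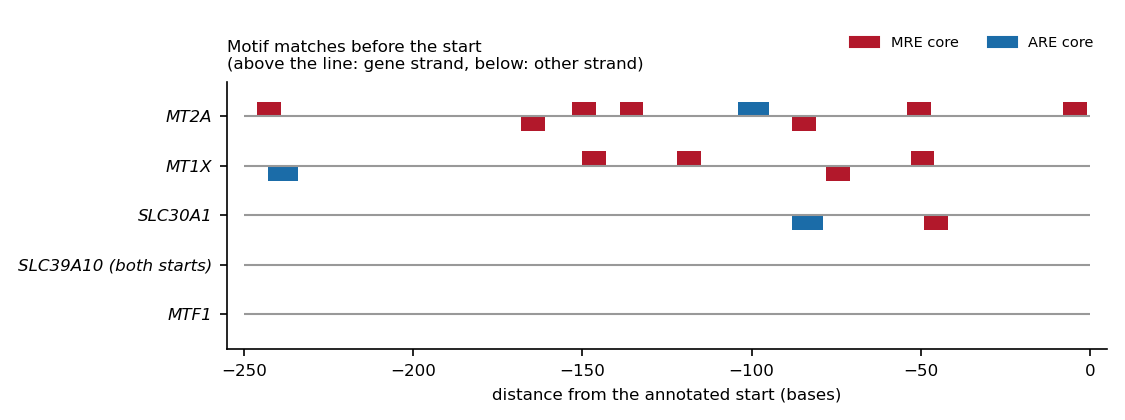
Positions of MRE core (red) and ARE core (blue, antioxidant response element) matches in the 250 bases before the annotated start, with distance from the start in bases on the horizontal axis and 1 line per gene. MT2A carries 7 red marks and MT1X 4, SLC30A1 carries 1, and SLC39A10 and MTF1 carry none.

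Metallothionein RNA in untreated cells was mostly MT2A. On the scale of CPM per kb of transcript, which allows genes of different length to be compared, the mean control level of MT2A was 718 (482 to 1169 over the 3 libraries). MT1E followed at 75.8 CPM per kb (59.4 to 106). SLC30A1 stood at 16.6 CPM per kb (15.2 to 17.9), and these first 3 ranges did not overlap. SLC39A10 at 7.08 (5.69 to 8.92), MT1F at 5.52 (3.59 to 7.29), MT1X at 5.32 (3.83 to 7.24) and MTF1 at 4.04 (3.79 to 4.24) came next, and neighbours in this order overlapped. MT1M was lowest of the tested genes at 2.94 CPM per kb (2.65 to 3.19), below the range of MTF1. MT1G was the only one of the 9 genes with under 10 counts. It had 1 count in control replicate 3 and 0 in the other 8 libraries, and since 3 counts, the limit that a count of 0 allows, correspond to 0.119 to 0.191 CPM, only a level above this could have been seen. MT1G was not tested, and the other 8 genes had at least 17 counts in every library. Among other genes of the exporter family (SLC30A) and the importer family (SLC39A), SLC39A14 lay at 66.1 CPM per kb, within the range of MT1E.

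**Figure D2:**
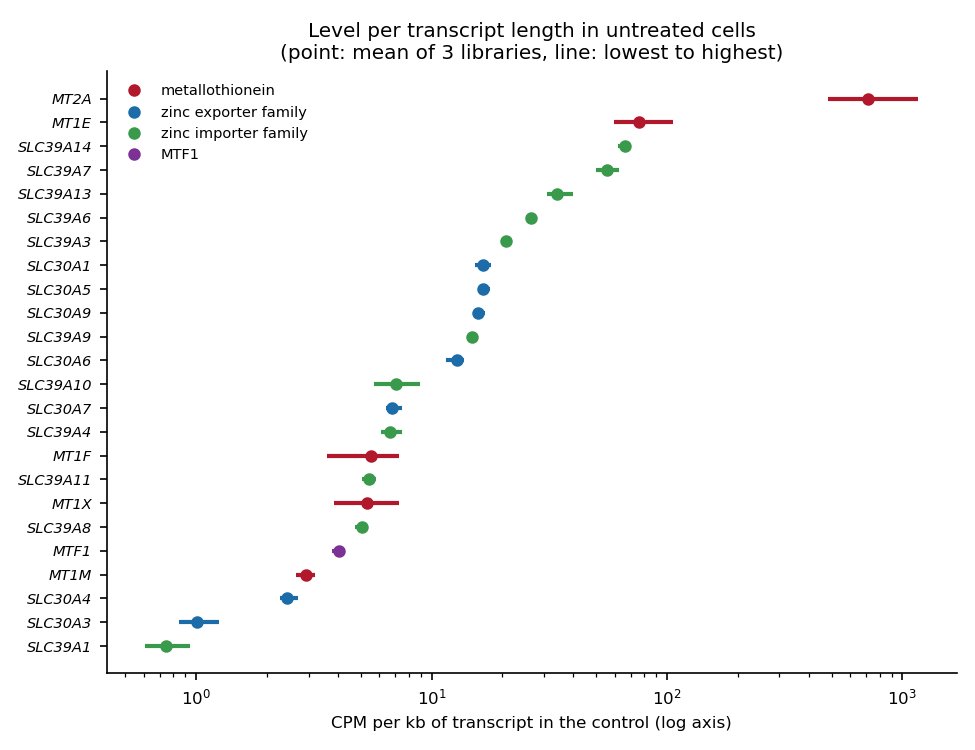
Level per transcript length of tested metallothionein and zinc transport genes in the 3 control libraries, as CPM per kb on a log axis, where points are means and lines run from the lowest to the highest library. MT2A lies far to the right at 718 CPM per kb, and MT1F, MT1X and MT1M lie below 6 CPM per kb. The levels of MT1X and SLC39A1 are uncertain, since other genes overlap their exons.

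EC was compared with control to ask which genes responded to the whole e-cigarette condensate. MT1E and MT2A, the most abundant metallothioneins, were upregulated, by 1.35-fold and 1.28-fold. They were 2 of the 8 tested genes, both higher in EC, where 13.5% of all 16030 tested genes passed in either direction and 8.07% were higher in EC. All 8 fitted log2 fold changes (LFCs) were above 0, with a median of 0.33, against a median of 0.0078 over all tested genes. The LFCs of MTF1, SLC30A1 and SLC39A10 were smaller than their standard errors (SEs). The test was edgeR's quasi-likelihood test with the batch as a block and Benjamini-Hochberg adjustment over all genes.

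MT1E encodes a metallothionein-1 isoform. Its control level was 46.1, 44.3 and 79.1 CPM in replicates 2, 3 and 4. In PG/VG it was 43.0, 41.7 and 71.1 CPM. In EC it was 70.5, 68.5 and 83.1 CPM. All EC libraries were above the control library of their own batch, but control replicate 4 was above EC replicates 2 and 3, so the groups overlapped. The LFC for EC against control was 0.44 (SE 0.095, edgeR adjusted p = 0.00442), and by batch it was 0.61, 0.63 and 0.071. The call for MT1E was kept when any library was left out, with LFCs from 0.34 to 0.59. Without the batch as a block the LFC was 0.39 and the edgeR adjusted p was 0.638.

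MT2A encodes the main human metallothionein-2. The control libraries had 193, 202 and 469 CPM of it. The PG/VG libraries had 215, 203 and 398 CPM. The EC libraries had 286, 292 and 463 CPM. EC replicates 2 and 3 were above their controls, whereas EC replicate 4 and control replicate 4 were nearly level and were the highest of all. The LFC was 0.36 (SE 0.090, edgeR adjusted p = 0.0132), made of 0.57 in batch 2, 0.53 in batch 3 and −0.018 in batch 4. The MT2A call was lost without control replicate 2 (edgeR adjusted p = 0.0957), control replicate 3 (0.0838), EC replicate 2 (0.0840) or EC replicate 3 (0.0904), and without the block (0.864). With batches 2 and 3 alone, an alternative added after the data were seen, both calls were made, at LFCs of 0.61 for MT1E and 0.53 for MT2A. Levels of bulk RNA do not tell a change in RNA per cell from a change in which cells were present.

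**Figure D3:**
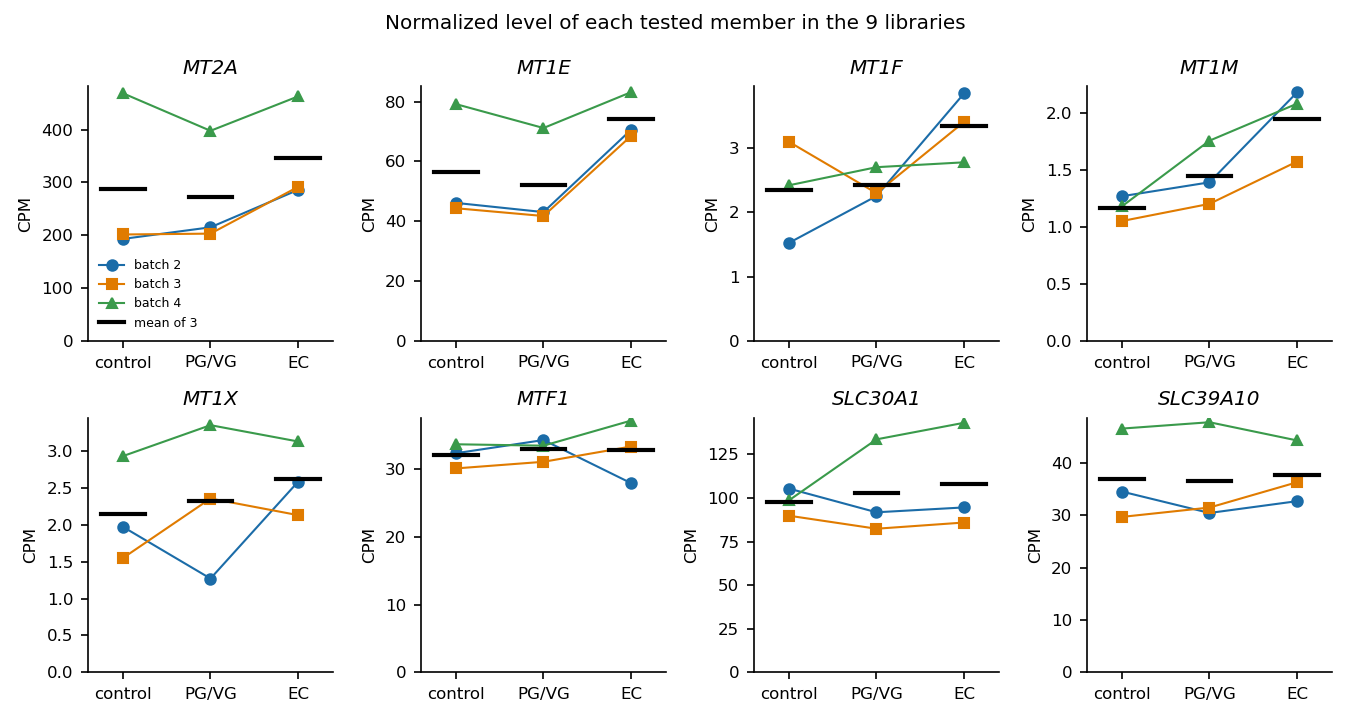
TMM-scaled CPM of the 8 tested genes in the 9 libraries, with 1 panel per gene, 3 libraries per group and the marker giving the batch. MT1E and MT2A in EC sit above the control of the same batch in batches 2 and 3 and beside it in batch 4, where MT2A reads 463 CPM in EC and 469 in control.

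The low metallothionein-1 genes had higher levels in EC than in control in every batch, but none passed the test. With MT1E they make 4 of the 8 genes that were higher in all 3 batches, as were 24.6% of all tested genes. MT1M was the only tested gene of the 8 whose EC and control libraries did not overlap, at 1.27, 1.05 and 1.18 CPM in control and 2.18, 1.57 and 2.08 CPM in EC. Such a separation with EC higher was found for 9.83% of all tested genes. In counts these were 20, 17 and 21 against 55, 37 and 42, with PG/VG between at 1.39, 1.20 and 1.76 CPM. Its LFC was 0.73 (SE 0.26, edgeR adjusted p = 0.0688), and the values by batch were 0.78, 0.58 and 0.82. MT1M was called under 3 alternatives, with library sizes left unscaled (edgeR adjusted p = 0.0455), with at least 10 counts required in every library (0.0487), and, added after the data were seen, with the GC and length trend removed (0.0291).

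MT1F had 1.52, 3.10 and 2.42 CPM in control. In EC it had 3.85, 3.40 and 2.78 CPM, overlapping the control through control replicate 3. The LFC was 0.52 (SE 0.23, edgeR adjusted p = 0.143), with 1.34 in batch 2 but 0.14 and 0.20 in batches 3 and 4, and it was 0.24 without control replicate 2 and 0.26 without EC replicate 2. MT1X, whose counts are uncertain as described above, had 1.97, 1.55 and 2.93 CPM in control and 2.58, 2.13 and 3.12 CPM in EC. Its LFC was 0.31 (SE 0.25, edgeR adjusted p = 0.458), and it was 0.079 without EC replicate 2 and 0.17 without control replicate 3.

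The zinc sensor and the transporters gave no call for EC against control. MTF1, the transcription factor itself, had 32.3, 30.1 and 33.7 CPM in control and 27.9, 33.3 and 37.1 CPM in EC. Its LFC was 0.030 (SE 0.093, edgeR adjusted p = 0.877), lower in batch 2 and higher in the other two. SLC30A1, the zinc exporter, had 105, 89.8 and 98.6 CPM in control. In EC it had 94.5, 85.9 and 143 CPM, so only EC replicate 4 was above the control range. The LFC was 0.10 (SE 0.11, edgeR adjusted p = 0.631), with −0.16, −0.064 and 0.54 by batch. SLC39A10, the zinc importer, had 34.6, 29.7 and 46.6 CPM in control and 32.7, 36.3 and 44.3 CPM in EC, with an LFC of 0.045 (SE 0.089, edgeR adjusted p = 0.797). The signs of these small LFCs changed under some other settings.

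PG/VG was compared with control to see what the carrier did alone. None of the 8 tested genes passed edgeR's test, where 4.54% of all tested genes did. None had an unadjusted p under 0.05, beside 20.1% of all tested genes. DESeq2 with the batch also called none, but it gave no adjusted p for MT1M and MT1X, which it therefore could not call. MT1E had an LFC of −0.12 (SE 0.096, edgeR adjusted p = 0.538), with PG/VG below the control in all 3 batches. For MT2A it was −0.032 (SE 0.090, edgeR adjusted p = 0.886), and the batches read 0.16, 0.012 and −0.24. MT1M had the LFC farthest from 0, at 0.31 (SE 0.28, edgeR adjusted p = 0.576). MT1F had 2.25, 2.30 and 2.70 CPM in PG/VG, inside the control range, and MT1X had 1.27, 2.35 and 3.35 CPM, which reached beyond it on both sides. MTF1 had 34.3, 31.1 and 33.5 CPM, and SLC39A10 had 30.5, 31.5 and 47.8 CPM. SLC30A1 had 91.8, 82.3 and 134 CPM, and its batch values of −0.20, −0.13 and 0.44 ran like those of EC, which share the same 3 control libraries.

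**Figure D4:**
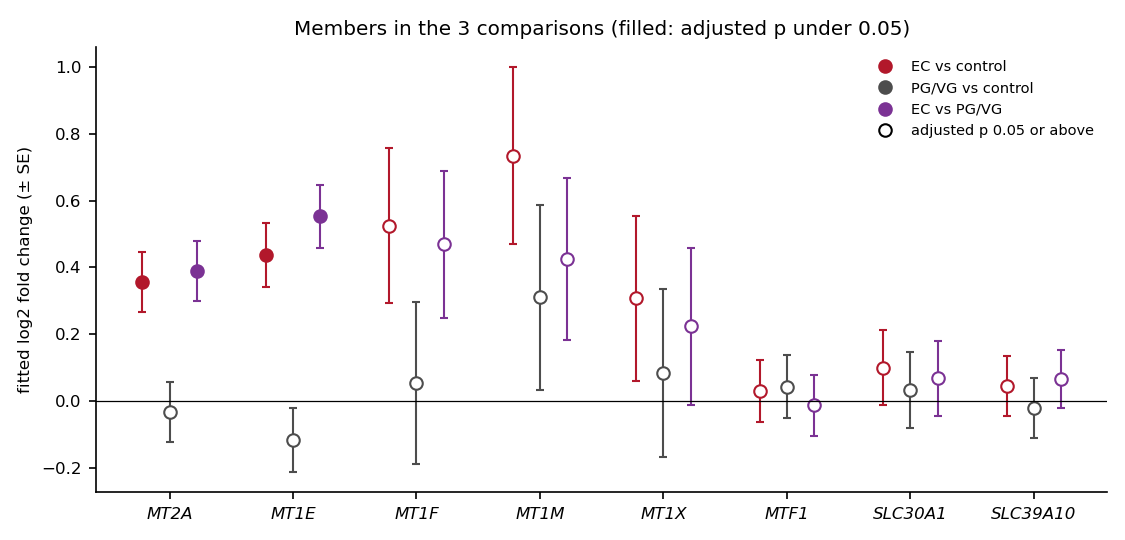
Fitted LFC with its SE for the 8 tested genes in each of the 3 comparisons, where filled points have an edgeR adjusted p under 0.05. Filled points are those of MT1E and MT2A for EC against control (0.44 and 0.36) and for EC against PG/VG (0.55 and 0.39).

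EC was compared with PG/VG, a carrier condensate without nicotine and flavor. Again MT1E and MT2A were higher in EC, by 1.47-fold and 1.31-fold. They were 2 of the 8 tested genes, in a comparison where 0.855% of all tested genes passed and 0.555% were higher in EC. MT1E had an LFC of 0.55 (SE 0.094, edgeR adjusted p = 0.0045) and MT2A of 0.39 (SE 0.090, edgeR adjusted p = 0.0488). Both were higher in EC in all 3 batches, as were MT1F, MT1M and SLC30A1 (5 of the 8, against 16.8% of all tested genes). The differences were 0.71, 0.71 and 0.22 for MT1E and 0.41, 0.52 and 0.22 for MT2A. EC replicates 2 and 3 were below PG/VG replicate 4 for both genes, so the groups overlapped. Neither was called without PG/VG replicate 2 (edgeR adjusted p = 0.0647 and 0.151) or without the block. MT2A was also lost without PG/VG replicate 3 (edgeR adjusted p = 0.152), PG/VG replicate 4 (0.192), EC replicate 2 (0.281) or EC replicate 3 (0.148). The same EC libraries enter this comparison and that with control.

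MT1F was the only gene of the 8 whose EC and PG/VG libraries did not overlap, a separation that 4.54% of all tested genes had with EC higher. Its LFC was 0.47 (SE 0.22, edgeR adjusted p = 0.375). MT1M had 0.42 (SE 0.24, edgeR adjusted p = 0.493) and MT1X 0.22 (SE 0.23, edgeR adjusted p = 0.752). The LFCs of SLC30A1 (0.068), SLC39A10 (0.065) and MTF1 (−0.013) were each smaller than their SEs (0.112, 0.0876 and 0.0912).

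Levels of several of these genes differed between batches, in each group. By edgeR's test of the batch, 5 of the 8 genes differed between batches, where 34.3% of all tested genes did. MT2A was 1.94-fold higher in batch 4 than in batch 2 after accounting for the exposure (edgeR adjusted p = 4.05e-08), and MT1E was 1.50-fold higher (1.85e-05). SLC39A10 was 1.42-fold higher (edgeR adjusted p = 4.16e-05), MT1X 1.64-fold higher (0.0325) and SLC30A1 1.28-fold higher (0.00536). MT1F (edgeR adjusted p = 0.790), MT1M (0.447) and MTF1 (0.368) were not called.

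The rise in batch 4 was not of equal size in the 3 groups. Batch 4 over the mean of batches 2 and 3 was 2.38 in control, 1.90 in PG/VG and 1.60 in EC for MT2A. For MT1E it was 1.75, 1.68 and 1.20. SLC30A1 ran the other way, at 1.01 in control, 1.53 in PG/VG and 1.59 in EC. With 1 library per group and batch, a difference in response between batches could not be tested. What differed about batch 4 is not given in the sources used here.

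**Figure D5:**
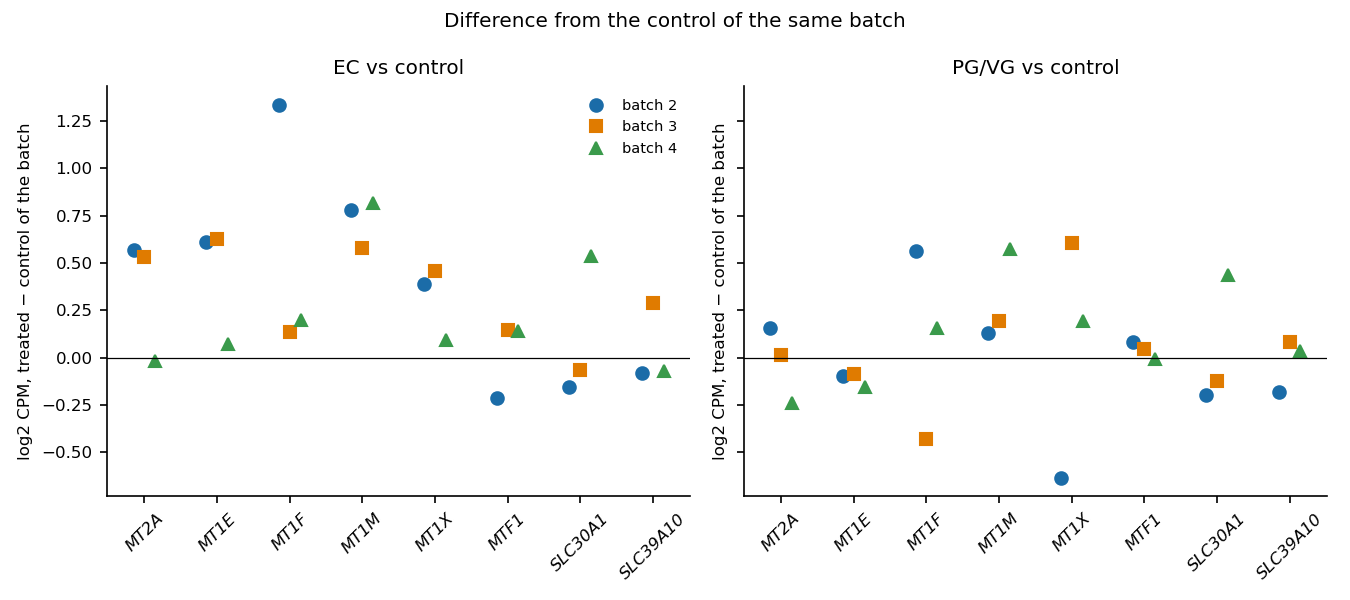
Difference in log2 CPM from the control of the same batch, for EC (left) and PG/VG (right), with 1 point per gene and batch. In batch 4 the EC points of MT1E (0.071) and MT2A (−0.018) lie near 0 and the SLC30A1 points lie high in both panels (0.54 and 0.44).

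Summed over the 6 metallothionein genes, the level was 244, 252 and 555 CPM in control, 263, 251 and 477 CPM in PG/VG and 365, 367 and 554 CPM in EC. MT2A supplied 78.3% to 84.6% of it and MT1E 14.3% to 19.3%, so the sum follows these genes. The log2 difference of EC from control was 0.37 ± 0.33 (SD over 3 batches), and that from PG/VG was 0.41 ± 0.17. PG/VG differed from control by −0.038 ± 0.17. There were 4.05 to 5.92 MT2A counts per MT1E count, with the 3 highest ratios in the 3 libraries of batch 4 (5.57 to 5.92).

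The tested genes most like MT2A across the 9 libraries, after each batch's mean log2 CPM was subtracted, were SCUBE2 (Pearson r = 0.989), CTSL (0.974), PWWP2B (0.973) and NRROS (0.969). MT1E came at rank 21 of the tested genes, with r = 0.951, MT1F had 0.760 and MT1M 0.652. SLC39A10 (0.414), MT1X (0.399), MTF1 (−0.127) and SLC30A1 (−0.240) were less like it. These values describe 9 libraries that share batches and exposure groups.

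Other genes of metal handling were followed as lists. None of the 9 further metallothionein genes listed reached the minimum of 10 counts in 3 libraries. MT1A came nearest with 2 to 16 counts per library, MT3 had at most 5, and MT1H and MT4 had 1 count each. MT1B, MT1L, MT1HL1, MT1JP and MT1DP were at 0. MT1L, MT1DP and the pseudogene entry of MT1JP overlap another gene over 100% of their exon length. Reads that overlapped several genes were not counted, so a value of 0 does not show that RNA of these was absent.

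Of 9 other zinc exporters, 6 were tested and 1 rose in EC against control, beside 8.07% of all tested genes. It was SLC30A3 (ZnT3), a transporter of vesicles. SLC30A3 had 2.48, 2.72 and 3.66 CPM in control, 3.85, 3.88 and 5.75 CPM in PG/VG and 4.76, 3.62 and 7.24 CPM in EC. EC was above the control of each batch, and EC replicate 3 was just below control replicate 4. The LFC was 0.80 (SE 0.18, edgeR adjusted p = 0.0045), and the call was lost without EC replicate 4 (0.0506), in batches 2 and 3 only (0.0883) and without the block (0.328). For PG/VG against control the LFC was 0.60 (SE 0.18, edgeR adjusted p = 0.0605). The median LFC of the 6 genes was 0.099 for EC against control.

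Of 13 other zinc importers, 10 were tested and 2 rose in EC against control, again beside 8.07% of all tested genes. The median LFC of the 10 was 0.045. Counts of SLC39A1, among these 10, are uncertain (20 to 50 per library), as 69.1% of its exon length overlaps another gene. SLC39A8 (ZIP8), which also carries manganese and cadmium, had 17.0, 14.9 and 16.0 CPM in control, 18.0, 17.7 and 21.2 CPM in PG/VG and 22.4, 21.2 and 24.5 CPM in EC. Every EC library was above every control library, a separation that 9.83% of all tested genes had with EC higher. The LFC was 0.51 (SE 0.098, edgeR adjusted p = 0.00127) for EC, a call that held without any single library but not without the block (0.154), and 0.25 (SE 0.099, edgeR adjusted p = 0.153) for PG/VG. SLC39A11 had an LFC of 0.30 (SE 0.099, edgeR adjusted p = 0.0485) for EC, close to its 0.29 (SE 0.0995, edgeR adjusted p = 0.0976) for PG/VG. The SLC39A11 call was lost whichever of the 9 libraries was left out. It was made in only 3 of 11 other settings, and not without the block (edgeR adjusted p = 0.307).

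Of 11 genes of copper handling, 10 were tested and 2 were called in EC against control, both lower. Of all tested genes, 13.5% were called in either direction and 8.07% were called higher in EC. Counts of SLC31A2, among the 10 tested, are uncertain (8 to 19 per library), as 64.0% of its exon length overlaps another gene. SLC31A1 (CTR1), the copper importer of the plasma membrane, had an LFC of −0.24 (SE 0.072, edgeR adjusted p = 0.0324). By batch it was −0.30, −0.34 and −0.052. SCO1, which helps deliver copper to cytochrome c oxidase, had an LFC of −0.25 (SE 0.079, edgeR adjusted p = 0.0357). Its batch values were −0.30, −0.39 and −0.058, so both falls were small in batch 4. The EC and control libraries overlapped for both genes. Each call was lost in 4 of the 9 fits that left out 1 library, without control replicate 2 or 3 or EC replicate 2 or 3. Both were also lost with unscaled library sizes (edgeR adjusted p = 0.109 for SLC31A1 and 0.112 for SCO1) and without the block (0.731 and 0.374), and SCO1 with the lighter filter (0.0514). None of the 26 tested genes of these 3 lists passed edgeR's test for PG/VG against control, and none did for EC against PG/VG. At an unadjusted p under 0.05 there were 6 and 3 of the 26, beside 20.1% and 12.9% of all tested genes.

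Some cell markers moved in the same EC libraries. KRT7, KRT8 and KRT18 fell in EC against control, by 0.45, 0.25 and 0.46 on the log2 scale (edgeR adjusted p = 0.000202, 0.0177 and 0.000125). They were 3 of the 6 tested of 8 epithelial markers, beside 13.5% of all tested genes called in either direction. The other tested epithelial markers had LFCs above 0 and did not pass (EPCAM 0.57, CDH1 0.36 and KRT19 0.18). Of the 5 tested mesenchymal markers, FN1 and CDH2 fell by 0.58 and 0.25 (edgeR adjusted p = 0.000113 and 0.0168), whereas VIM (LFC −0.22), SPARC (0.19) and COL1A1 (0.17) did not pass. In EC against PG/VG, where 0.855% of all tested genes passed, KRT7 fell by 0.32 (edgeR adjusted p = 0.0320) and FN1 by 0.47 (0.00694). In PG/VG against control, where 4.54% of all tested genes passed, none of the 6 epithelial markers did. COL1A1 rose by 0.26 (edgeR adjusted p = 0.0394) and VIM fell by 0.27 (0.0441). The part of the cell markers in the metallothionein values was not tested. Nor was that of depth, which was lower in the control libraries.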

How the data were processed

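Poly(A)-selected RNA from 9 BEAS-2B libraries was sequenced. The authors used fastp for trimming and STAR for alignment (GRCh38.p12), counted reads per Ensembl gene with featureCounts (Subread 2.0.4), without reads that mapped to several places or overlapped several genes, and deposited raw counts for 63187 genes. The strand setting is not given in the sources used here, so overlapping genes may be miscounted. Symbols were matched for 62666 genes. The 16030 genes that reached 10 counts in 3 or more libraries were tested with edgeR 4.0.16 in R 4.3.3 (TMM scaling, robust quasi-likelihood fit of all 9 libraries with group and batch, Benjamini-Hochberg threshold 0.05), and SE is the absolute LFC over the square root of F. The limit given for a count of 0 covers counting error only. The labels give the replicate number as the batch. Deviations from the group means correlated by 0.334 to 0.707 in the 9 same-number pairs and by −0.539 to 0.426 in the 18 others, so the number was used as a block. No 2 libraries of a group were duplicates.

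All 9 chosen genes are named, as are genes of the metal handling and marker lists that passed in any comparison, and the 5 genes most like MT2A by Pearson correlation, 1 of which is not reported here. The genes and lists were chosen with earlier results of these data known. The summed metallothionein level is given as a description, and no p is printed for it. The test was checked on simulated counts. Alternatives were other scalings and filters, no block, each library left out and the 2 groups alone. DESeq2 1.42.0 was also run, with the batch or after ComBat-Seq (sva 3.50.0). Added after the data were seen were batches 2 and 3 only and counts thinned to the smallest library. Removal of the GC and length trend (mgcv 1.9.3), with the replicate block, was also added then.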

Additional observations from a re-analysis of the deposited data

How the results depend on the processing

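Without the replicate block, edgeR's test called 0 of the 8 genes for EC against control, where 16 genes in all passed instead of 2157, and 0 for EC against PG/VG, where 1 gene passed instead of 137. Leaving out a library gave 1 to 2 genes called for EC against control, 0 to 2 for EC against PG/VG, 0 throughout for PG/VG against control and 3 to 5 for the batch. The cause was not tested. RLE scaling, unscaled library sizes, other filters, the 2 groups alone, DESeq2 with the batch, ComBat-Seq with DESeq2, the removed GC and length trend (15949 genes with values, all 8 included), batches 2 and 3 only and thinned counts each called MT1E and MT2A in both EC comparisons. Over all results and settings, 493 values kept their direction and call, 48 lost the call, 3 gained it and 36 changed sign, all of the last in a comparison where that gene was not called. Values that kept their direction but had no adjusted p from DESeq2 were counted among the 493. For EC against control, unscaled library sizes moved the median LFC of all genes to 0.068 and the share of calls higher in EC from 60.0% to 79.3%, and the removed GC and length trend moved that share to 31.5%, with 3850 genes called. ComBat-Seq with DESeq2 moved it to 49.1%. Over all genes, PG/VG against control called 1682 with ComBat-Seq, 1413 without the GC and length trend, 1241 with the 2 groups alone, 324 in batches 2 and 3 only and 1 without the block, instead of 727, and EC against control called 1216 in batches 2 and 3 only. EC against PG/VG called 621, 561, 316 and 80 under the first 4 of these settings and 309 with the lighter filter. Leaving out a library gave 1162 (without control replicate 3) to 2172 genes for EC against control, 192 (without PG/VG replicate 2) to 1084 for PG/VG against control and 32 (without PG/VG replicate 2) to 208 for EC against PG/VG.

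The LFCs that changed sign were, with unscaled library sizes, 0.0064 for SLC39A10 (PG/VG against control) and 0.021 for MTF1 (EC against PG/VG). In batches 2 and 3 only they were −0.044 for MTF1 and −0.13 for SLC30A1 in EC against control, and −0.024 for MT1F, −0.013 for MT1X, 0.068 for MT2A and −0.18 for SLC30A1 in PG/VG against control. With the GC and length trend removed they were −0.055 for MTF1 (EC against control), 0.0061 for MT2A, −0.078 for MTF1 and −0.012 for SLC30A1 (PG/VG against control) and 0.024 for MTF1 (EC against PG/VG). Leaving out each library gave −0.057 to 0.15 for MTF1, −0.10 to 0.22 for SLC30A1 and −0.051 to 0.11 for SLC39A10 in EC against control. In PG/VG against control it gave −0.22 to 0.29 for MT1F, −0.0997 to 0.38 for MT1X, −0.13 to 0.13 for MT2A, −0.044 to 0.088 for MTF1, −0.17 to 0.15 for SLC30A1 and −0.11 to 0.045 for SLC39A10. In EC against PG/VG it gave −0.092 to 0.41 for MT1X, −0.090 to 0.12 for MTF1, −0.057 to 0.17 for SLC30A1 and −0.029 to 0.14 for SLC39A10. At 17 to 55 counts per library, MT1M had an SE of 0.26, against 0.090 for MT2A.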
